A study of Mus musculus with 13 samples.

Results

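The elastic fibre genes described here are Eln, Fbn1, Fbn2, Fbln1, Fbln2, Fbln5, Efemp1, Efemp2, Mfap4 and Mfap5. They were chosen by name for their part in the elasticity of lung and connective tissue, and all 10 were found among the 23418 genes of the deposited count table. The libraries were bulk RNA sequencing of mouse cells in 3 groups, with 4 libraries of FAPs from skeletal muscle (numbered 2 to 5), 5 of FAPs from lung (1 to 5) and 4 of MEFs (1 to 4). FAP stands in this field for fibro/adipogenic progenitor, a mesenchymal cell of the tissue interstitium, and MEF for mouse embryonic fibroblast, a cell taken from the embryo and usually grown in culture. The labels give only these abbreviations and, for FAPs, the tissue. Strain, age, sex and treatment of the animals, the gate for FAPs and the culture of the MEFs are not given in any source used. The series sequenced FAPs of both tissues to look for transcripts that drive the differentiation of muscle stem cells.

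Elastic fibres give lung, arteries and skin their recoil. A core of elastin, cross-linked by lysyl oxidases, is laid down on a scaffold of microfibrils, whose backbone is fibrillin. Fibulins and microfibril-associated glycoproteins bind elastin and fibrillin and take part in assembly, and fibroblasts and smooth muscle cells make most of the components.

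Levels are counts relative to the library's total, scaled by TMM (the trimmed mean of M-values) so that libraries of different makeup can be compared, and are given as CPM. Values of a gene are listed in the order of the replicate numbers. A log2 difference is the log2 fold change of muscle against lung FAPs or of FAPs against MEFs, negative where lung FAPs or MEFs were higher. The SE beside it comes from the spread of log2 CPM within the groups compared, not from the edgeR fit that gave p. Gene positions are those of GENCODE M21 on GRCm38, the assembly of mm10. A gene passed a comparison at a Benjamini-Hochberg adjusted p under 0.05 in edgeR's quasi-likelihood test, adjusted over 15412 genes. Library totals ran from 41327292 to 44699463 counts in muscle FAPs, from 28636183 to 35464622 in lung FAPs and from 33756915 to 41466585 in MEFs. The summed level of the FAP markers Pdgfra, Ly6a and Cd34 ran from 3614 to 3915 CPM in the muscle group, from 2591 to 4066 in the lung group and from 113 to 159 in MEFs, and all 3 were above 0 in every library. Of 10 smooth muscle and pericyte markers, the sum was 103 to 110 CPM for muscle FAPs, 369 to 2261 for lung (highest in lung FAP 2) and 2325 to 4048 for MEFs, with each of the 10 above 0 in every library. Acta2 made up most of the MEF sum (mean 2499 CPM, 446 in lung FAPs), while Myh11 stood higher in lung FAPs (221 CPM) than in MEFs (23.3 CPM). Mesothelial markers (7 genes) summed to 1.35 to 28.4, 420 to 961 and 123 to 161 CPM, and tenocyte markers (6 genes) to 1225 to 2199, 97.6 to 186 and 45.2 to 52.7 CPM, in the same order of groups. Lung FAP 3 stood apart with 7864 CPM of lung epithelial markers against a lung median of 81.1. The MEF libraries differed in the female-specific Xist, at 0.121, 87.2, 0.0227 and 99.5 CPM in MEF 1 to 4. In FAPs Xist reached at most 0.592 CPM (muscle) and 0.485 CPM (lung). Ddx3y, a gene of the Y chromosome, stood at 193 to 253 CPM in muscle FAPs and 124 to 199 CPM in lung FAPs. MEF 1 to 4 held 69.9, 0.0637, 43.1 and 37.5 CPM of Ddx3y. Stress-response genes had their highest sums in muscle FAPs (19296 to 23966 CPM), followed by lung FAPs (2851 to 8917) and MEFs (352 to 535). Single genes of that list did not all follow this order. In the same order of groups, Hspa1b averaged 4417, 90.7 and 27.0 CPM, Hsph1 3309, 91.2 and 119, and Fos 2545, 2446 and 53.0.

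Over the set, the differences of FAPs from MEFs were larger in the median than those between both kinds of FAP. Eln, Fbn1, Fbln1, Mfap4 and Mfap5 were higher in muscle FAPs and in lung FAPs than in MEFs, and Fbn2 was higher in MEFs than in either. Between the FAPs, Fbln1, Efemp1 and Mfap4 were higher in lung, while Fbn1, Fbn2 and Fbln2 were higher in muscle. Fbln5 and Efemp2 differed least over the 3 groups. In bulk samples, fewer cells of a type and less RNA per cell cannot be told apart. The labels do not say that the libraries of a group come from separate animals or cultures, so each p measures the spread between these libraries. That spread may be technical, although the MEF libraries, which differed in Xist and Ddx3y, are not all repeats of the same cells.

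**Figure D1:**
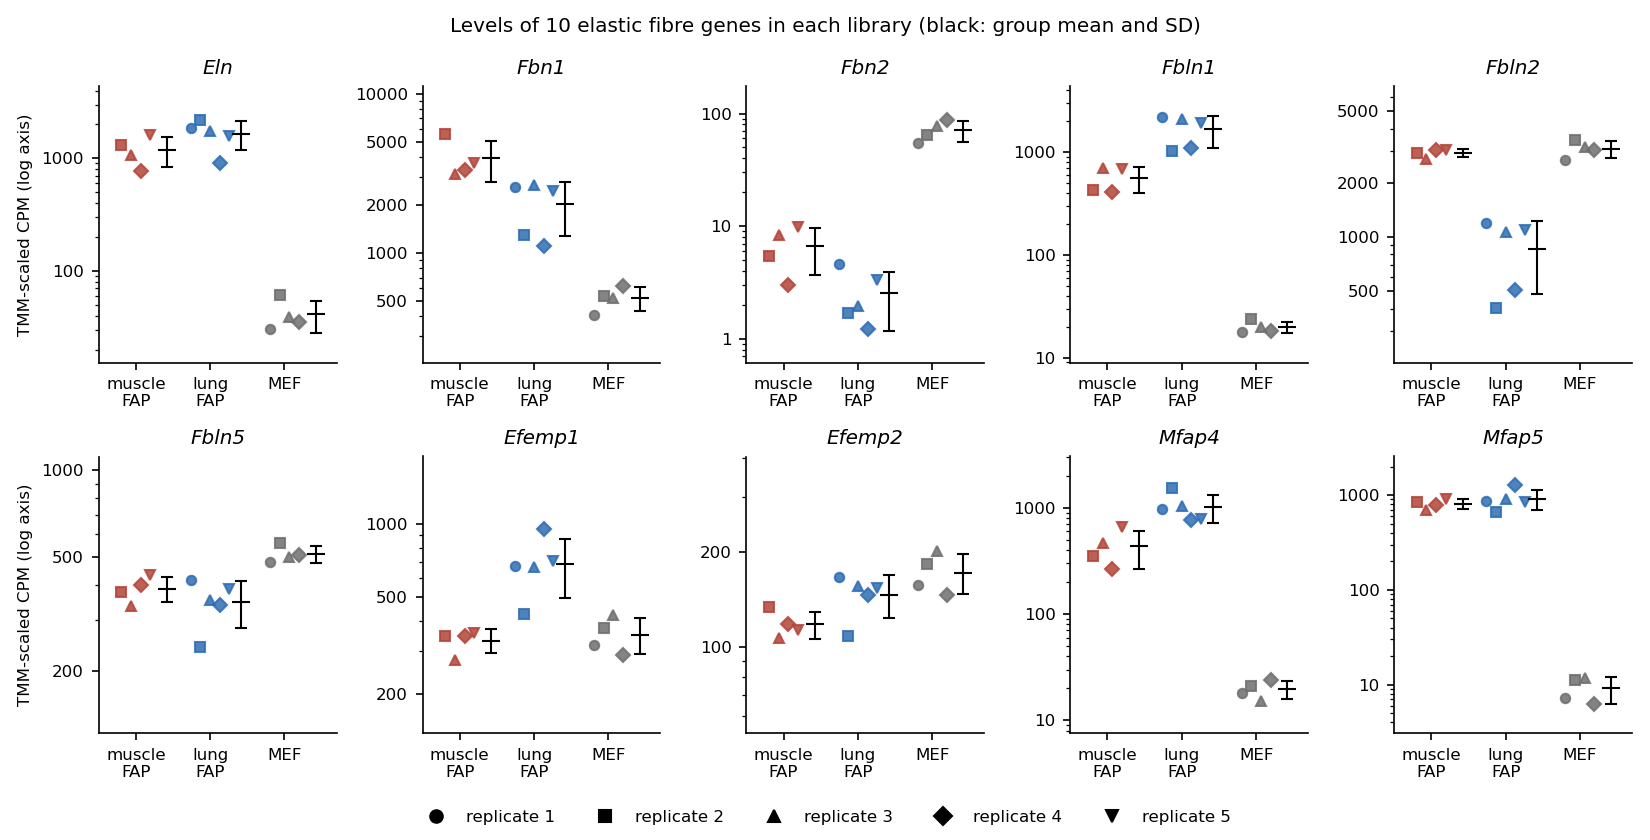
Level of each of the 10 elastic fibre genes in every library, in TMM-scaled CPM on a log axis that differs between panels. Marker shapes give the replicate number and black bars the group mean ± SD (n = 4 muscle FAP, 5 lung FAP, 4 MEF). Eln, Fbln1, Mfap4 and Mfap5 lie far lower in MEFs than in any FAP library, while Fbn2 is highest in MEFs and Fbln2 lowest in lung FAPs.

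Eln (chr5:134702593-134747323, minus strand) encodes tropoelastin, the soluble precursor of the elastic core. It stood at 1326, 1070, 768 and 1597 CPM in muscle FAP 2, 3, 4 and 5. In lung FAP 1 to 5 it stood at 1858, 2194, 1750, 913 and 1563 CPM. MEF 1 to 4 held 30.8, 60.5, 38.7 and 35.3 CPM. Every FAP library was above every MEF library, and the ranges of muscle and lung FAPs overlapped because lung FAP 4 was low and muscle FAP 5 high. The means were 1190 ± 354 (SD, n = 4), 1656 ± 474 (SD, n = 5) and 41.3 ± 13.2 CPM (SD, n = 4). Eln was 28.8-fold higher in muscle FAPs than MEFs (edgeR, log2 difference 4.85, SE 0.31, adjusted p = 4.43e-09). In lung FAPs it was 40.1-fold above MEFs (edgeR, log2 difference 5.32, SE 0.30, adjusted p = 1.67e-09). Between muscle and lung FAPs it did not pass (edgeR, log2 difference −0.48, SE 0.31, adjusted p = 0.154). Without lung FAP 4 that value was −0.62 (edgeR adjusted p = 0.0401), and with scaling by library size only it was −0.88 (edgeR adjusted p = 0.0136). Within lung FAPs, the smooth muscle marker sum was highest in lung FAP 2 and lowest in lung FAP 4, as was Eln. Between these ends the order differed. The sum was 783, 643 and 1436 CPM in lung FAP 1, 3 and 5, and Eln was lowest of these in lung FAP 5. MEFs had sums of 2325 to 4048 CPM and the least Eln. The part of such cells in the level of Eln was not tested.

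Fbn1 (chr2:125300594-125507993, minus strand) encodes fibrillin-1, the main backbone protein of microfibrils after birth. Its levels in muscle FAPs were 5578, 3110, 3323 and 3687 CPM. In lung FAPs they were 2608, 1302, 2660, 1106 and 2440 CPM. The MEF libraries held 410, 535, 518 and 623 CPM. The groups did not overlap in any pair, and lung FAP 2 and lung FAP 4 were the low lung libraries. Eln, above, shares 267 exon bases and Fbn1 2442 with a gene on the opposite strand not counted in the table (Gm30003 and Gm9913), and since the counting is not stated to use strand, reads of the pairs cannot be told apart. Fbn1 was 1.94-fold higher in muscle than in lung FAPs (edgeR, log2 difference 0.96, SE 0.33, adjusted p = 0.00792). Scaling by library size only gave 0.57 (edgeR adjusted p = 0.0616), which did not pass. Against MEFs, Fbn1 was raised 7.53-fold in muscle FAPs (edgeR, log2 difference 2.91, SE 0.23, adjusted p = 4.47e-07) and 3.88-fold in lung FAPs (log2 difference 1.96, SE 0.30, adjusted p = 1.49e-05).

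Fbn2 encodes fibrillin-2, the fibrillin known mainly from embryonic and fetal tissue. Muscle FAPs held 5.48, 8.28, 3.02 and 9.73 CPM. Lung FAPs held 4.58, 1.68, 1.94, 1.23 and 3.31 CPM. In MEFs the levels were 54.4, 64.1, 77.6 and 87.7 CPM. It was the only one of the 10 genes under 10 CPM in every FAP library. Fbn2 also shares 129 exon bases with a gene on the opposite strand not counted in the table (Gm26507). With no stated use of strand, reads there cannot be told apart. Fbn2 was 10.7-fold higher in MEFs than in muscle FAPs (edgeR, log2 difference −3.42, SE 0.40, adjusted p = 4.39e-06) and 27.8-fold higher than in lung FAPs (log2 difference −4.79, SE 0.37, adjusted p = 1.2e-07). Between FAPs it was higher in muscle by 1.37 on the log2 scale (SE 0.50, edgeR adjusted p = 0.0092), although lung FAP 1 and lung FAP 5 lay above muscle FAP 4. That call was lost with limma-voom (1.06, adjusted p = 0.136) and without lung FAP 2, 3 and 4 in edgeR (0.74, adjusted p = 0.139).

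Levels of different genes were compared per length, as CPM per kilobase of exon (RPKM), with exon lengths from GENCODE M21. That length covers all annotated exons of a gene together and can exceed its main transcript. Ratios, shares and rankings of different genes therefore depend on the annotation, while each gene has the same length in all groups. Fbn2 made up 11.1% ± 0.922 (SD, n = 4) of the summed RPKM of both fibrillins in MEFs, with 9.91% to 12.1% in the 4 libraries. In muscle FAPs its share was 0.165% ± 0.0901 (SD, n = 4) and in lung FAPs 0.115% ± 0.0343 (SD, n = 5). The shares in muscle FAPs (0.0834% to 0.244%) and in lung FAPs (0.0668% to 0.161%) overlapped, and none came near those of MEFs. Elastin relative to its fibrillin scaffold also differed by group, as the ratio of Eln to Fbn1 in RPKM. That ratio was 0.356, 0.515, 0.346 and 0.649 in muscle FAPs. In lung FAPs it was 1.07, 2.52, 0.985, 1.24 and 0.959, and in MEFs 0.112, 0.17, 0.112 and 0.0849. Groups did not overlap, and each lung FAP library had more Eln per Fbn1 than any muscle FAP library, also without lung FAP 2, the highest.

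**Figure D2:**
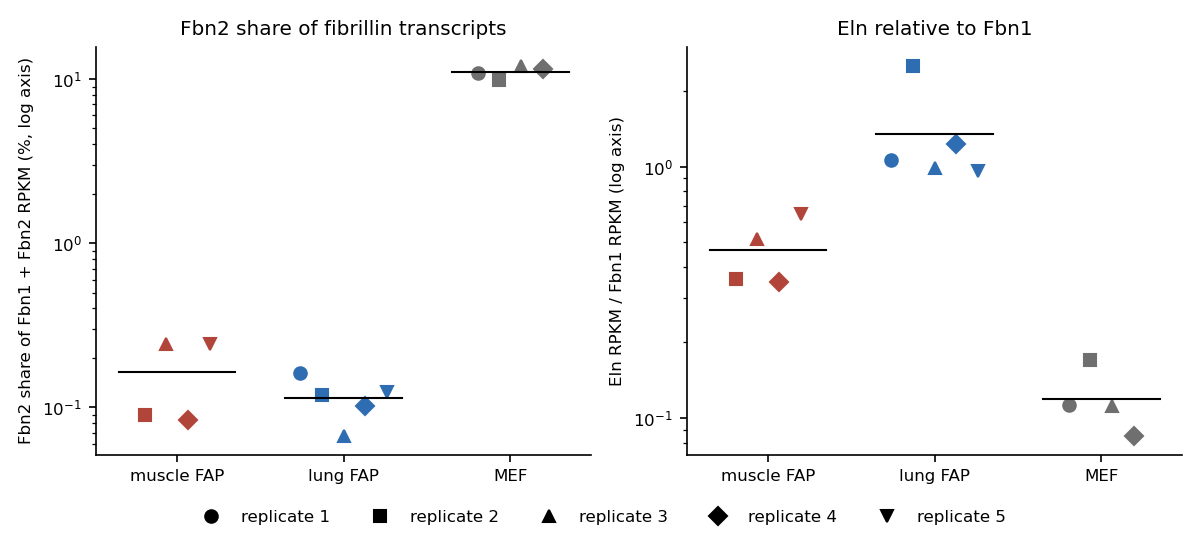
Left, Fbn2 as a percent of summed Fbn1 and Fbn2 RPKM, and right, Eln RPKM divided by Fbn1 RPKM, both on log axes, with 1 point per library and a line at the group mean. MEFs hold 9.91% to 12.1% of Fbn2 while all FAP libraries hold under 1%, and the Eln to Fbn1 ratio is highest in lung FAPs, with lung FAP 2 at 2.52.

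The fibulins are secreted glycoproteins that bridge elastin, microfibrils and cell surfaces. Fbln1 (chr15:85205949-85286535, plus strand) encodes fibulin-1, a component of elastic fibres and basement membranes. Muscle FAPs held 427, 702, 408 and 687 CPM of it. Lung FAPs held 2189, 1013, 2100, 1091 and 1928 CPM, and lung FAP 2 and 4 were again the low ones. MEFs held 17.9, 23.5, 19.7 and 18.1 CPM. The 3 groups did not overlap. Fbln1 was 2.99-fold higher in lung than in muscle FAPs (log2 difference of muscle from lung in edgeR −1.58, SE 0.32, adjusted p = 0.000144). Its distance to MEFs was 28.1-fold from muscle FAPs (edgeR, log2 difference 4.81, SE 0.23, adjusted p = 1.98e-09) and 84-fold from lung FAPs (log2 difference 6.39, SE 0.26, adjusted p = 1.57e-10).

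Fbln2 (chr6:91212455-91272540, plus strand) encodes fibulin-2, which binds fibrillin-1 and is found in the elastic layers of vessels. Its levels in muscle FAPs were close together, at 2932, 2733, 3030 and 3058 CPM. MEFs held 2676, 3461, 3166 and 3061 CPM. Lung FAPs held 1194, 401, 1061, 510 and 1101 CPM, all under every library of the other groups. Fbln2 was 3.44-fold higher in muscle than in lung FAPs (edgeR, log2 difference 1.78, SE 0.33, adjusted p = 7.18e-05) and 3.62-fold higher in MEFs than in lung FAPs (log2 difference of lung from MEF in edgeR −1.86, SE 0.33, adjusted p = 1.55e-05). Muscle FAPs and MEFs overlapped (edgeR, log2 difference −0.07, SE 0.09, adjusted p = 0.823), and with library size only the value was −0.65 (edgeR adjusted p = 0.0315). Over its libraries Fbln2 spanned 0.16 on the log2 scale in muscle FAPs and 1.57 in lung FAPs, where the median tested gene spanned 0.46 and 0.72.

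Efemp1 (chr11:28853204-28926743, plus strand) encodes fibulin-3. In muscle FAPs it stood at 347, 275, 346 and 355 CPM. In lung FAPs it stood at 674, 425, 666, 954 and 707 CPM, and in MEFs at 317, 374, 422 and 288. Every lung FAP library was above every other library, with lung FAP 2 the lowest of them and lung FAP 4 the highest. Efemp1 was 2.07-fold higher in lung than in muscle FAPs (edgeR, log2 difference −1.05, SE 0.21, adjusted p = 0.00034) and 1.96-fold higher than in MEFs (edgeR, log2 difference 0.97, SE 0.22, adjusted p = 0.000275). Muscle FAPs and MEFs overlapped (edgeR, log2 difference −0.08, SE 0.15, adjusted p = 0.711). With library size only that value was −0.66 (edgeR adjusted p = 0.00417).

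Fbln1 and Efemp1 are the fibulins that were higher in lung than in muscle FAPs, and the sequence in front of each gene is shown for that reason. RefSeq's promoter table (GRCm38.p6) had an entry for 6 of the 10 genes. The windows of Fbln1 and Efemp1 are the first 250 bases of their entries, which end at RefSeq's start of the gene, at chr15:85205699-85205948 and chr11:28852955-28853204, both on the plus strand. The last base of the Efemp1 window is the first base of the gene in GENCODE. They are written 5′ to 3′ in lower case, with matches to the motifs named after them in capitals.
Fbln1: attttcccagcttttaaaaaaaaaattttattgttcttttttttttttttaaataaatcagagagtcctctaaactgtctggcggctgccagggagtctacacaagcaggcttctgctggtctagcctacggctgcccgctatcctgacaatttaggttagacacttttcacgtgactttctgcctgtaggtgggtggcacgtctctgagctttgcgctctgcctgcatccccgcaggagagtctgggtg
Efemp1: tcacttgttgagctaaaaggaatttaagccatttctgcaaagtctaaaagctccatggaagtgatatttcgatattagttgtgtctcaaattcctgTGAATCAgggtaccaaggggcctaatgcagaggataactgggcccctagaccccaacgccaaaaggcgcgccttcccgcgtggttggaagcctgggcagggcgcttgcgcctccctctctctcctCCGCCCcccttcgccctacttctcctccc

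The motifs searched, on both strands, were the TATA box (TATAAA, in 12.37% of 32851 promoters of the same length), the CCAAT box (CCAAT, 33.85%), the GC box (GGGCGG, 32.74%) and the AP-1 motif (TGANTCA, 6.749%). Efemp1 held a GC box ending 24 bases before the start and an AP-1 motif ending 148 bases before it. The Fbln1 window held none of these letters. CpG dinucleotides numbered 7 in Fbln1 and 10 in Efemp1, against a median of 6 over all promoters.

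Fbln5 (chr12:101746565-101819055, minus strand) and Efemp2 (chr19:5473954-5482517, plus strand) encode fibulin-5 and fibulin-4, which bring tropoelastin and lysyl oxidase to the microfibril and without which elastic fibres do not form properly. Fbln5 stood at 378, 338, 399 and 431 CPM in muscle FAPs. Lung FAPs held 413, 243, 355, 338 and 387 CPM, and MEFs 478, 559, 498 and 508. The FAP groups overlapped, and every MEF library was above every FAP library. Between FAPs the edgeR log2 fold change of Fbln5 was 0.15 (SE 0.15, adjusted p = 0.374), and its sign turned with library size only (−0.24) and without lung FAP 2, 3 and 4 (−0.06). Fbln5 was 1.47-fold higher in MEFs than in lung FAPs (edgeR, log2 difference −0.56, SE 0.14, adjusted p = 0.00178) and 1.32-fold higher than in muscle FAPs (log2 difference −0.40, SE 0.09, adjusted p = 0.0211). The latter did not pass in edgeR without muscle FAP 3 (−0.36, adjusted p = 0.0513) or without MEF 2 and 4 (−0.36, adjusted p = 0.102).

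Efemp2 stood at 134, 106, 118 and 113 CPM in muscle FAPs. Lung FAPs held 167, 108, 156, 146 and 154 CPM, and MEFs held 157, 184, 202 and 146. Lung FAP 2 lay among the muscle libraries, and the other lung libraries lay among or next to the MEFs. Efemp2 was 1.46-fold higher in MEFs than in muscle FAPs (edgeR, log2 difference −0.55, SE 0.13, adjusted p = 0.00218). Between FAPs its edgeR log2 fold change of −0.31 (SE 0.13, adjusted p = 0.062) passed in 11 of 26 other settings, among them without lung FAP 2 (−0.39, adjusted p = 0.0102). Leaving out muscle FAP 2 (adjusted p = 0.0445), MEF 3 (0.0434) or MEF 4 (0.0453) also brought it under the threshold in edgeR. Between lung FAPs and MEFs the log2 fold change was −0.24 (SE 0.15, edgeR adjusted p = 0.112), and it passed without MEF 4 (−0.32, edgeR adjusted p = 0.0439) and with library size only (−0.42, edgeR adjusted p = 0.00389). Efemp2 shares 173 exon bases with Mus81 on the opposite strand. The counting is not stated to use strand, so reads of both genes there cannot be told apart, and Mus81 stood at 12.9, 16.2 and 27.9 CPM in the 3 groups.

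The 5 fibulins were also expressed as shares of their summed RPKM, which depend on the annotated exon lengths as said above. Fbln2 held 55.1% ± 2.1 (SD, n = 4) of that sum in muscle FAPs and 62.1% ± 2.44 (SD, n = 4) in MEFs. In lung FAPs its share was 13.8% ± 3.47 (SD, n = 5), and Fbln1 (40.1% ± 6.89) and Efemp1 (36.5% ± 9.57) held most of the rest. Fbln1 held 15.2% ± 4.25 in muscle FAPs and 0.58% ± 0.0365 in MEFs. Lung FAP 4 differed from the other lung libraries, with Efemp1 at 52.9% and Fbln1 at 28.2%. The ratio of Fbln1 to Fbln2 in RPKM was 2.55 to 3.68 in lung FAPs, 0.196 to 0.375 in muscle FAPs and 0.00861 to 0.0099 in MEFs, with no overlap between groups.

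**Figure D3:**
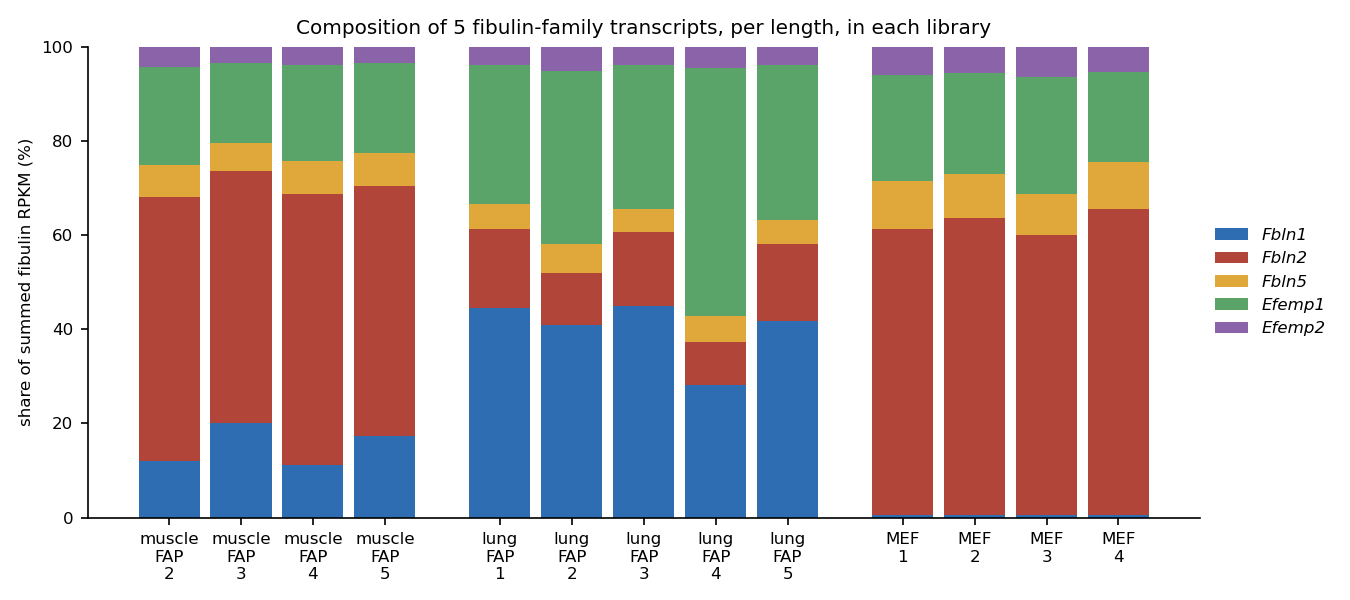
Stacked bars, 1 per library, give each of 5 fibulin-family genes as a percent of their summed RPKM. Fbln2 takes more than any other in every muscle FAP and MEF library and 9.04% to 16.7% in lung FAPs, where Fbln1 and Efemp1 take most of the sum.

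Mfap4 (chr11:61485431-61488900, plus strand) and Mfap5 (chr6:122505845-122529290, plus strand) encode microfibril-associated glycoproteins. Mfap4 binds tropoelastin and fibrillin and is abundant in lung. It stood at 354, 461, 264 and 656 CPM in muscle FAPs. Lung FAPs held 966, 1521, 1040, 776 and 784 CPM, all above every muscle library, with lung FAP 2 the highest. MEFs held 18, 20.8, 15.2 and 24 CPM. Mfap4 was 2.34-fold higher in lung than in muscle FAPs (edgeR, log2 difference −1.23, SE 0.33, adjusted p = 0.0013). Muscle FAPs held 22.3-fold more of it than MEFs (edgeR, log2 difference 4.48, SE 0.31, adjusted p = 6.25e-09) and lung FAPs 52.2-fold more (log2 difference 5.71, SE 0.23, adjusted p = 6.67e-10). Mfap4 shares 89 exon bases with Mapk7 on the opposite strand, whose mean level was 25.1, 29.2 and 37.3 CPM in muscle FAPs, lung FAPs and MEFs, above that of Mfap4 in MEFs.

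Mfap5, also called MAGP-2, binds fibrillin. Muscle FAPs held 851, 696, 780 and 915 CPM and lung FAPs 873, 662, 913, 1276 and 849 CPM. The FAP groups overlapped, with lung FAP 2 the lowest and lung FAP 4 the highest of all. In MEFs it stood at 7.2, 11.3, 11.8 and 6.17 CPM. Mfap5 had the largest fold of the 10 genes in both comparisons with MEFs, 89.02-fold for muscle FAPs (edgeR, log2 difference 6.48, SE 0.25, adjusted p = 1.66e-11) and 100.4-fold for lung FAPs (log2 difference 6.65, SE 0.28, adjusted p = 1.13e-11). Between FAPs it did not pass (edgeR, log2 difference −0.17, SE 0.17, adjusted p = 0.509), and with library size only it was −0.57 (edgeR adjusted p = 0.0208).

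**Figure D4:**
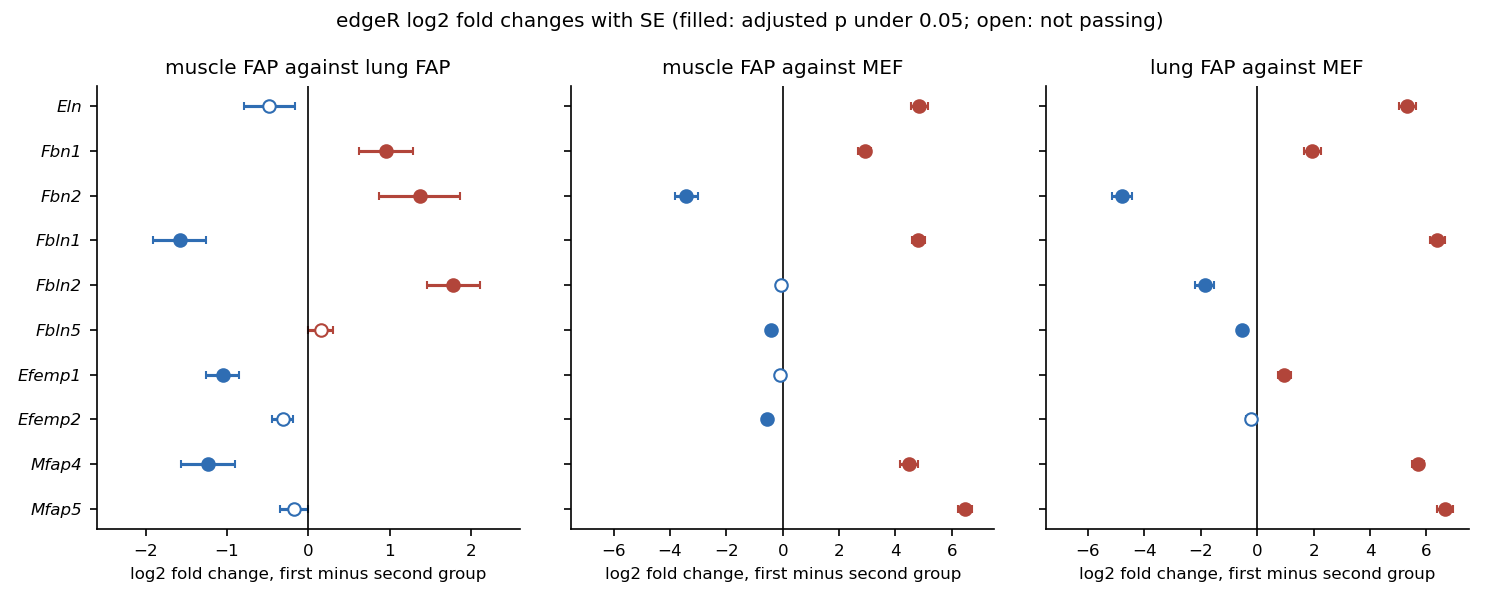
edgeR log2 fold change of each elastic fibre gene in the 3 comparisons, filled where the adjusted p was under 0.05. Bars are 1 SE from the spread of log2 CPM, not from the edgeR fit. The horizontal scale of muscle FAP against lung FAP is narrower. 5 genes lie at 1.96 or more above MEFs in both FAP groups, while Fbn2 lies at −3.42 and −4.79.

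Counted over the set, 6 of the 10 genes passed between muscle and lung FAPs, where 48.2% of all tested genes passed. Of these, 3 were higher in muscle FAPs (Fbn1, Fbn2, Fbln2), against 23.2% of all genes, and 3 were lower (Fbln1, Efemp1, Mfap4), against 25%. In 5 of the 10 genes the libraries of both groups did not overlap, as in 37.9% of all genes. Muscle FAPs against MEFs had 8 of 10 passing, 5 higher and 3 lower, where 73.5% of all genes passed (36.1% higher, 37.3% lower), and 8 of 10 without overlap, as in 73.9% of all genes. Lung FAPs against MEFs had 9 of 10 passing, 6 higher and 3 lower, where 74.4% passed (37.8% higher, 36.6% lower), and 9 of 10 without overlap, as in 65.3% of all genes. The shares that passed were thus near those of all genes, and the sizes were larger. The median absolute log2 fold change of the 10 genes was 1.0, 3.17 and 3.37 in the 3 comparisons in that order, against 0.49, 1.07 and 1.05 over all genes. Their median signed value was −0.24, 1.42 and 1.46, against −0.04, −0.04 and 0.02 over all genes. The 3 comparisons share their groups' libraries and are not independent of each other. Scaling by library size only moved the median of all genes to −0.44, −0.62 and −0.15, and the share of higher genes among those called from 48.1% to 18.8% between FAPs and from 49.2% to 31.7% for muscle FAPs against MEFs. Upper-quartile scaling gave 41.8% between FAPs. With library size only, 2 of the 10 genes passed as higher in muscle than in lung FAPs and 6 as lower.

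Per length, the most abundant of the 10 genes differed by group. Fbln2 had the highest mean RPKM in muscle FAPs (461) and in MEFs (485), while in lung FAPs Mfap4 did (529). Fbn1 (324) followed in muscle FAPs, Fbln1 (381) in lung FAPs and Efemp1 (172) in MEFs. Fbn2 was the least abundant in both FAP groups (0.501 and 0.193 RPKM), and Mfap5 was in MEFs (2.54). The summed level of the 10 genes was 10696 ± 1454 CPM (SD, n = 4) in muscle FAPs, 9309 ± 1724 (SD, n = 5) in lung FAPs and 4807 ± 473 (SD, n = 4) in MEFs. The order of both FAP groups turned without TMM scaling, when the 10 genes together took 0.85% ± 0.132 (SD, n = 4) of all counts in muscle FAPs, 0.973% ± 0.146 (SD, n = 5) in lung FAPs and 0.568% ± 0.048 (SD, n = 4) in MEFs.

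Within lung FAPs the members did not vary together. Lung FAP 2 and lung FAP 4 were the lowest for Fbn1, Fbln1 and Fbln2. The same libraries took opposite ends for Eln and Mfap4, high in lung FAP 2 and low in lung FAP 4, and for Efemp1 and Mfap5, low in lung FAP 2 and high in lung FAP 4. Lung FAP 2 had the highest sums of smooth muscle markers (2261 CPM), endothelial markers (614 CPM) and lung mesenchyme markers (6 genes, 3434 CPM) among lung FAPs. Adventitial fibroblast markers (5 genes, led by Pi16) summed to 2293 CPM in lung FAP 2, the lowest, and 6024 CPM in lung FAP 4, the highest. The stress-response genes also set lung FAP 2 and lung FAP 4 apart from the rest of the group. Lung FAP 2 had the smallest sum (2851 CPM), followed by lung FAP 4 (3617 CPM). Next came lung FAP 5, whose sum was 6804 CPM. Fos by itself was likewise lowest in lung FAP 2 (1130 CPM), then lung FAP 4 (1496 CPM), then lung FAP 3 (2743 CPM). The part of these cell types or of the stress response in the levels of the members was not tested.

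The genes that work on the same fibres were described from lists of 17 microfibril and elastic fibre partners, 5 lysyl oxidases, 13 elastin-degrading proteases and their inhibitors, 9 receptors and 8 regulators of elastin expression. Of the partners, 14 passed as higher and 1 as lower in muscle FAPs than in MEFs, and 15 as higher and 2 as lower in lung FAPs than in MEFs. Over all tested genes, 36.1% were higher and 37.3% lower in the former comparison and 37.8% and 36.6% in the latter. Between FAPs 4 partners were higher in muscle, 4 lower and 9 did not pass, where 23.2% of all genes were higher and 25% lower. Adamtsl2, whose protein binds fibrillin-1 and latent TGF-beta binding protein, averaged 290 CPM (muscle FAPs) and 136 CPM (lung FAPs) against 0.467 in MEFs, with edgeR log2 differences of 9.27 (SE 0.30, adjusted p = 8.94e-10) and 8.19 (SE 0.33, adjusted p = 2.02e-09). Fbln7, which encodes fibulin-7, had the largest difference between FAPs among the partners. It stood at 278, 172, 196 and 253 CPM in muscle FAPs. Lung FAPs held 13.7, 7.22, 8.58, 3.92 and 7.7 CPM, a 27.4-fold difference with no overlap (edgeR, log2 difference 4.77, SE 0.33, adjusted p = 3.63e-08). Of the tenocyte markers, 6 of 6 passed as higher in muscle than in lung FAPs, where 23.2% of all genes were higher. Thbs4 led their sum (mean 1188 CPM in muscle FAPs), while Scx stood at 0.730 CPM there. Within muscle FAPs the sum was highest in muscle FAP 3 (2199 CPM), the library with the least Fbln7 (172 CPM). The part of such cells in the level of Fbln7 was not tested.

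Lysyl oxidases cross-link elastin and collagen. Between FAPs, 4 of 5 were higher in muscle (23.2% of all genes) and 1, Loxl1, did not pass. Loxl2 stood at 1717, 1378, 1377 and 1353 CPM in muscle FAPs. In lung FAPs it stood at 495, 378, 490.0, 392 and 447 CPM, a 3.31-fold difference (edgeR, log2 difference 1.73, SE 0.11, adjusted p = 7.56e-08). Lox, the founding member of the family, was higher in MEFs than in both kinds of FAP, at 1468, 1300, 1142 and 1709 CPM. Muscle FAPs held 540.1, 643, 610.1 and 515 CPM of Lox (edgeR, log2 difference −1.28, SE 0.14, adjusted p = 2.59e-06). Lung FAPs held 394, 297, 303, 258 and 358 CPM (edgeR, log2 difference −2.13, SE 0.16, adjusted p = 4.71e-09). Loxl1, Loxl3 and Loxl4 were higher in both FAP groups than in MEFs.

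Of the proteases and inhibitors, 12 of 13 were tested and Elane was not. Between FAPs 5 were higher in muscle, 6 lower and 1 did not pass, where 48.2% of all genes passed. Timp4, an inhibitor of matrix metalloproteases, stood at 2.55, 15.04, 3.67, 1.79 and 8.12 CPM in lung FAPs, highest in lung FAP 2. That library also had the highest lung sums of smooth muscle, endothelial and lung mesenchyme markers. In muscle FAPs Timp4 had 11 counts over 4 libraries, or 0.0809 CPM, with a log2 difference of −6.21 (SE 0.70, edgeR adjusted p = 3.13e-05). Without lung FAP 2 that value was −5.57, and it passed in each of the 25 other settings that tested it. Against MEFs, 5 were higher and 5 lower in muscle FAPs, and 7 were higher and 4 lower in lung FAPs, where 73.5% and 74.4% of all genes passed. Ctss, a lysosomal cathepsin typical of macrophages, was at 47.7 CPM in MEFs and 0.0952 in muscle FAPs (edgeR, log2 difference −8.92, SE 0.45, adjusted p = 2.61e-08). Mmp12, the macrophage elastase, had 2 counts over all lung FAPs, both in lung FAP 3, and 1216 over all MEFs. The ratio of these pooled counts, MEFs over lung FAPs, scaled by the groups' summed TMM-scaled library sizes, was 560 (95% counting interval 155 to 4628, edgeR adjusted p = 2.13e-08). The interval covers counting error only. Blood cell markers (6 genes) summed to 101 to 412 CPM in MEFs and 4.32 to 5.74 CPM in muscle FAPs. In lung FAPs they summed to 637 CPM in lung FAP 3 and to 18.6 to 40.7 CPM in the other libraries. The lysozyme gene Lyz2 made up 67.6 to 322 CPM of the sum in MEFs. It made up 615 CPM in lung FAP 3, the library with the most lung epithelial markers. Ctss stood at 0.298 CPM in lung FAP 3, its lowest level among lung FAPs. Cd68, another of the blood cell markers, ran from 5.48 to 6.99 CPM over the lung FAPs. The part of blood cells in Ctss and Mmp12 was not tested.

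Among receptors for elastic fibres and their fragments, 5 of 9 were higher in muscle than in lung FAPs, 2 lower and 2 did not pass, where 48.2% of all genes passed. Itga8, an integrin subunit that pairs with the beta-1 chain, stood at 151, 371, 118, 104 and 201 CPM in lung FAPs. Muscle FAPs held 35.2, 28.4, 31.0 and 27.9 CPM (edgeR, log2 difference −2.63, SE 0.34, adjusted p = 3.03e-05), and MEFs held 14.99 to 23.4 CPM (lung against MEF 3.19, SE 0.36, edgeR adjusted p = 1.64e-06). Lung FAP 2, with the highest lung sums of smooth muscle, endothelial and lung mesenchyme markers, was the highest for Itga8. Against MEFs, muscle FAPs had 3 receptors higher and 4 lower, with Itgb3 at 48.2 against 9.40 CPM (edgeR, log2 difference 2.36, SE 0.20, adjusted p = 1.97e-07). In lung FAPs 3 were higher and 5 lower. Of all genes, 73.5% passed for muscle FAPs against MEFs and 74.4% for lung FAPs.

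Of 8 regulators of elastin expression, 7 were higher and 1 lower in muscle FAPs than MEFs, where 36.1% of all genes were higher. In lung FAPs 6 were higher and 1 lower, where 37.8% of all genes were higher. The lower gene was Tgfb1 in both. The list was not split by the direction in which its genes act on elastin, so these counts do not tell whether Eln is favoured. Igf1, a growth factor, averaged 242 CPM (muscle FAPs) and 203 CPM (lung FAPs) against 36.3 in MEFs (edgeR log2 differences 2.74, SE 0.33, adjusted p = 1.83e-07, and 2.48, SE 0.33, adjusted p = 3.31e-07). Between FAPs 5 regulators were higher in muscle (23.2% of all genes), 1 was lower and 2 did not pass. The median log2 fold changes of the lysyl oxidases, receptors and regulators between FAPs were 0.61, 0.52 and 0.41. Scaling by library size only moved the median of all genes from −0.04 to −0.44, so the counts of these lists may depend on the scaling. Tgfb2 stood at 106, 140.0, 159 and 103 CPM in muscle FAPs. Lung FAPs held 41.3, 60.3, 55.3, 30.5 and 51.3 CPM (edgeR, log2 difference 1.41, SE 0.23, adjusted p = 2.06e-05).

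**Figure D5:**
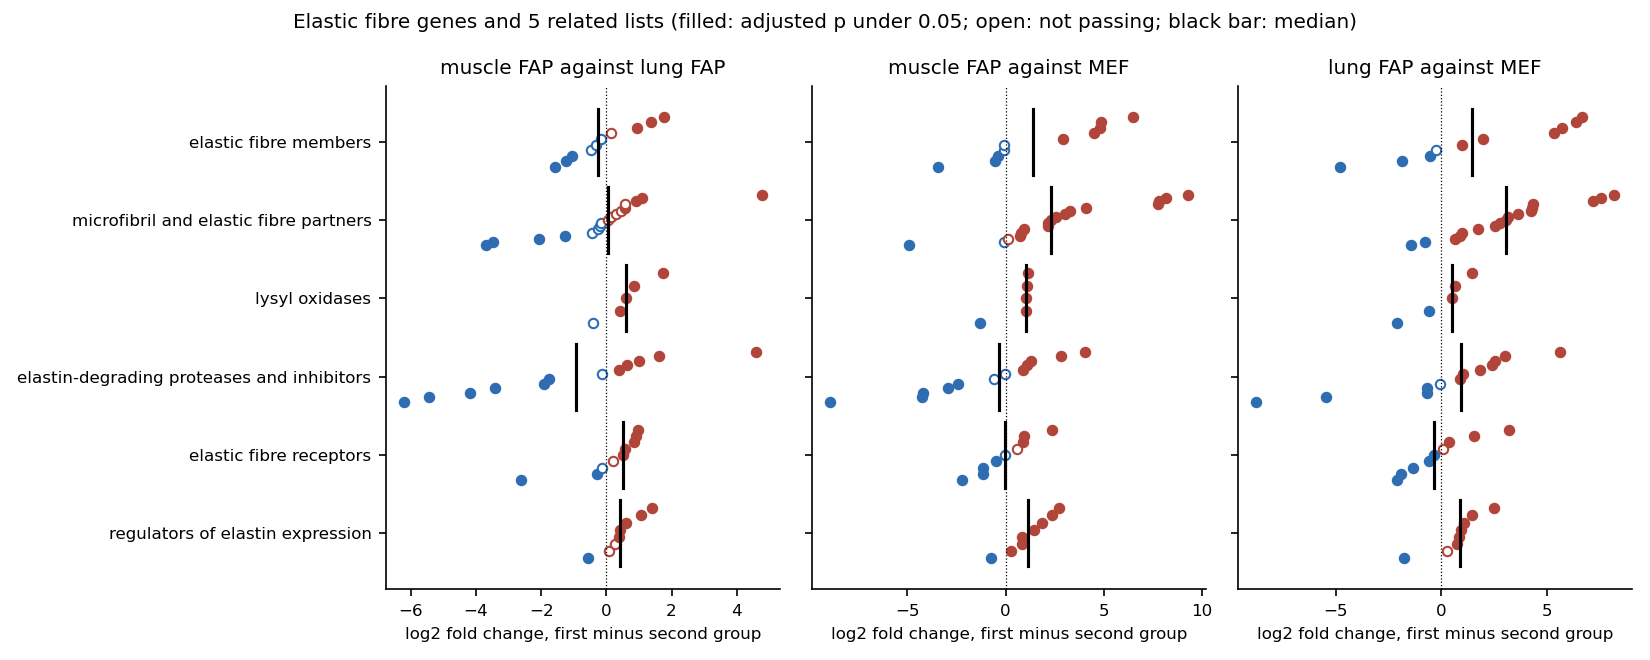
edgeR log2 fold change of every tested gene of the elastic fibre set and of 5 related lists in the 3 comparisons, filled where the adjusted p was under 0.05, with a black bar at each list's median. The partners lie mostly above 0 against MEFs (14 of 17 higher in muscle FAPs, 15 in lung FAPs), and 4 of 5 lysyl oxidases lie above 0 between FAPs.

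The genes whose pattern was most like that of each member were found by the root mean square difference of mean-centred log2 CPM over the 13 libraries, among 10210 genes with at least 10 CPM in a group. For Eln they were Acacb (0.34), Lamc3 (0.39), Cpz (0.39), Tmtc1 (0.41) and Cbx7 (0.43). The nearest member to Eln was Mfap4 (0.46). Fbn1 was nearest to Col1a2 (0.23), a chain of type I collagen, which stood at 19088, 9484 and 2411 CPM in muscle FAPs, lung FAPs and MEFs. Fbln5 and Efemp2, the flattest of the set, were nearest to Glud1 (0.12) and Ptov1 (0.11). The others were nearest to Fhl3 (Fbn2, 0.51), Pigz (Fbln1, 0.31), Btbd11 (Fbln2, 0.30), Cdc42ep2 (Efemp1, 0.18), Tspan11 (Mfap4, 0.43) and Srpx (Mfap5, 0.33). These distances describe the 13 libraries, which fall in 3 groups, and carry no test.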

How the data were processed

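Illumina libraries were made from total RNA (Trizol, then a column) of 13 samples, per the labels' protocols. The authors' deposited table holds raw read counts per gene. The submitters' processing notes name Bowtie2 2.1.0.0, HTSeq and edgeR, and the build mm10. Annotation and strand setting are not given in any source used.

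From these counts, TMM scaling and edgeR 4.0.16 (R 4.3.3) quasi-likelihood tests with robust dispersion were run on all 13 libraries, with group as the only factor, on the 15412 genes kept by filterByExpr. SEs come from log2 CPM with a prior count of 2. RPKM used GENCODE M21 exon lengths (GRCm38), which the authors' counting may not match. The fit was tested on simulated data. The members, the other lists and the alternatives (DESeq2 1.42.0, limma 3.58.1, other scalings and filters, libraries left out) were chosen with earlier results of these data known. From each related list the text names the passing gene that changed most, if its higher group reached 5 CPM. Markers given by name lead their list or define the cell type. Myh11, Loxl1, Loxl3, Loxl4 and Tgfb1 were named after their values were seen. No column of other samples was used.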

Additional observations from a re-analysis of the deposited data

Results flagged for a closer look

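Of 39 checks for a library far from the rest of its group (Dixon's criterion at 95%, which chance meets in about 1 group in 20), 2 met the criterion. Efemp1 stood at 275 CPM in muscle FAP 3, and at 346 to 355 CPM in the other 3 muscle FAP libraries. The ratio of Eln to Fbn1 in RPKM was 2.52 in lung FAP 2 and 0.959 to 1.24 in the other 4 lung FAP libraries. Neither library changed the call of Efemp1, Eln or Fbn1 between the FAP groups when it was left out.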

How the results depend on the processing

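Over 26 other settings, 3769 values were recomputed, and 3640 counted as unchanged. A test had to keep its direction and side of the threshold, and a level had to move by less than its spread. A count or a median of all genes had to stay within a set margin. Under that margin, 6805 genes passing between FAPs counted as unchanged from 7424. A test against a 2-fold change (glmTreat) passed 1934, 5892 and 5944 genes in place of 7424, 11326 and 11464 for muscle against lung FAPs, muscle FAPs against MEFs and lung FAPs against MEFs, and left 37.8% of the calls between FAPs higher. Between FAPs it passed 2 members, 1 higher and 1 lower, and in muscle FAPs against MEFs 1 lower. With library size only, 6 members were lower between FAPs and 5 in muscle FAPs against MEFs. Fbln5 reversed between FAPs to −0.24 with library size only and to −0.056 without lung FAP 2, 3 and 4, and the cause was not tested. Leaving out each library in turn gave 6355 to 7556, 10707 to 11515 and 10976 to 11588 genes passing, and 6 to 7, 7 to 8 and 9 to 10 members. The same replicate number did not pair libraries, with correlations of −0.0484 to 0.0612 and 1 of 4, 2 of 3 and 1 of 4 libraries correlating best with their own number. The replicate block gave 6805, 10817 and 11121 genes passing and changed 0 of 30 member calls. Counts were few for Fbn2 in lung FAPs (37 to 160 a library), Adamtsl2 in MEFs (17 to 28), Ctss (2 to 5) and Timp4 (0 to 5) in muscle FAPs, and Mmp12 in lung FAPs (0 to 2).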
